A study of Mus musculus with 4 samples.

Results

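The regions described here are 5 kb stretches of the mouse autosomes where the 5-hydroxymethylcytosine (5hmC) reads of neural progenitor cells (NPC) came mostly from 1 DNA strand. Tiles of 5 kb were laid from the start of chromosomes 1 to 19, and a tile was kept when the 2 input libraries together held at least 5 distinct reads and at most 4.79 times their median of 24. Of 452909 kept tiles, 4951 held at least 20 distinct NPC 5hmC reads, and 1016 of these had over 75% of them on a single strand. These 1016 strand-skewed tiles made up 20.5% of the tiles with enough NPC reads and 0.224% of all kept tiles. Counts are of distinct reads throughout, meaning 1 per position and strand. The values that chose the tiles are the number and the strand share of the NPC 5hmC reads and the summed number of input reads. Those are given below as descriptions, and the ESC 5hmC library and the strands of both inputs are the measures that the choice did not use.

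The series compared mouse embryonic stem cells (ESC) of the 46C line, strain 129/Ola, with NPC differentiated from them in monolayer. The 46C line carries GFP under the control of Sox1, an early neural gene, and the NPC were rosette-like GFP-positive cells taken on day 9. Each cell type gave 1 library precipitated with a polyclonal 5hmC antibody and 1 input library of DNA that was not precipitated, and no siRNA or shRNA was applied to any of them. DNA of the 2 cell types was sonicated below 500 bp, tagged with separate barcodes, mixed in a single tube and denatured before the antibody was added, so that both 5hmC libraries share 1 precipitation. The autosomes held 7042662 distinct reads in ESC 5hmC, 1709355 in NPC 5hmC, 4944294 in ESC input and 6438000 in NPC input. Between 49.96% and 50.01% of these lay on the plus strand. There was 1 library per group, so that no replicate error could be measured, and all intervals are 95% intervals that cover counting error only.

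5hmC arises when TET enzymes oxidise methylated cytosine, mostly at CpG, a dinucleotide that reads the same on both strands of DNA. In ESC it is found over gene bodies, enhancers and poised promoters. Because the DNA is made single-stranded before precipitation, the strands of a fragment can be recovered separately. Whether the strand of a read is that of the captured molecule depends on the form of the adaptor, which is not given in the sources used here. Read positions are on genome build mm9. No sequence or annotation of that build was used here, so tiles are given by position, without genes and without their bases.

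Over all skewed tiles, the skew ran to both strands about equally often. The plus strand held the majority in 479 tiles and the minus strand in 537, a plus share of 47.1% (44.0 to 50.3). In 661 tiles the majority strand held over 80% of the NPC reads, in 168 over 90% and in 54 over 95%. Among the 168 tiles the plus share was lower, at 39.9% (32.4 to 47.7), but among skewed tiles with at least 40 NPC reads it was 49.7% (41.4 to 58.0). Both subsets were cut on the NPC reads that chose the tiles, so these shares are descriptions and show no strand preference. In 14 tiles, of 20 to 38 reads, every NPC read lay on 1 strand, which allows a share of up to 7.89% to 15% for the other strand. Over all 1016 tiles the majority strand held 25955 NPC reads and the other 4971. Most tiles were near the minimum of reads. The median was 25 NPC 5hmC reads, 456 tiles held 20 to 24, and 149 held 40 or more.

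The share of tiles that passed the rule was higher among tiles with more reads. It was 17.1% (15.9 to 18.3) of the 3858 tiles with 20 to 29 NPC reads and 27.0% (23.8 to 30.2) of the 768 with 30 to 39. It reached 39.1% (33.1 to 45.3) of the 261 tiles with 40 to 59 reads and 73.4% (60.9 to 83.7) of the 64 with 60 or more. The tiles richest in NPC 5hmC reads were thus mostly strand-skewed. At the border of the rule, a tile on chromosome 8 from 12005001 to 12010000 was just inside, with 46 plus and 15 minus NPC reads (75.4%). The next ones, with 75.6% each, were tile 126390001 to 126395000 of chromosome 10 and tile 168435001 to 168440000 of chromosome 2. Just outside, at 75%, were a tile on chromosome 7 from 51610001 to 51615000 with 39 plus and 13 minus reads, and 2 tiles with 33 and 11 each, namely 112115001 to 112120000 of chromosome 5 and 78540001 to 78545000 of chromosome 15. In ESC these border tiles held 64.1%, 66.7% and 58.7% of the 5hmC reads on the NPC majority strand inside the limit, and 66.7%, 63.6% and 72.3% outside it. The ESC shares inside and outside the limit overlapped.

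ESC 5hmC reads were skewed towards the same strand. Since the rule set a minimum for the NPC share only, a lower ESC share cannot be read as a difference between the cell types. On the strand that held the NPC majority lay 31645 of 47724 ESC 5hmC reads, or 66.3% (65.9 to 66.7), against 83.9% of the NPC reads that had chosen the tiles. The median tile held 67.7% of its ESC reads on that strand, and the middle 50% of the tiles ran from 59.0% to 77.8%. In the 3692 comparison tiles, which had as many NPC reads but at most 75% on 1 strand, the same share of ESC reads was 54.2% (54.0 to 54.4). Another 243 tiles with equal strands had no majority and were left out of that value. The ESC share followed the NPC share within the comparison tiles too, at 51.9% (51.5 to 52.2) where the NPC majority held at most 60% and 56.5% (56.2 to 56.8) where it held 60% to 75%.

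The inputs stood close to equal strands over the whole tile. The NPC majority strand held 48.7% (47.9 to 49.5) of the 15756 ESC input reads in the skewed tiles and 48.5% (47.9 to 49.2) of the 19983 NPC input reads. In the comparison tiles both inputs stood at 49.4% (49.0 to 49.8 in ESC and 49.0 to 49.7 in NPC). Of skewed tiles with at least 20 input reads, 5 of 239 in ESC input and 5 of 497 in NPC input had over 75% on the NPC majority strand. In the comparison tiles it was so in 0.302% and 0.576%. Counting either strand in any kept tile with 20 or more input reads, the background was 1.53% for ESC input and 1.3% for NPC input. Under 25% on the NPC majority strand were 1 of the 239 and 1 of the 497 skewed tiles, against 0.604% and 0.72% of comparison tiles.

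Tile by tile, the direction was nearly always shared between the cell types. Of the 1016 tiles, 897 had at least 20 ESC 5hmC reads, 119 had fewer and none had 0. In 816 of the 897 (91.0%, 88.9 to 92.8) over 50% of the ESC reads lay on the NPC majority strand, in 14 the strands were equal and in 67 the other strand was ahead. The background is 64.1% of 3376 comparison tiles. The interval of the ESC share lay above 50% in 491 tiles (54.7%), against 17.8% of comparison tiles, and below 50% in 3. The ESC share itself passed 75% on the same strand in 248 tiles (27.6%, 24.7 to 30.7), against 3.11% of comparison tiles and 4.62% of all 118098 kept tiles with at least 20 ESC reads on either strand. That share depended on the rule, at 45.3% with over 90% on 1 strand in NPC, 50.3% with at least 40 NPC reads and 59.2% in tiles of 2 kb. The ESC share passed 90% in 38 tiles. No skewed tile had under 25% of its ESC reads on the NPC majority strand, which allows up to 0.334% of such tiles, while the background is 0.267%.

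**Figure D1:**
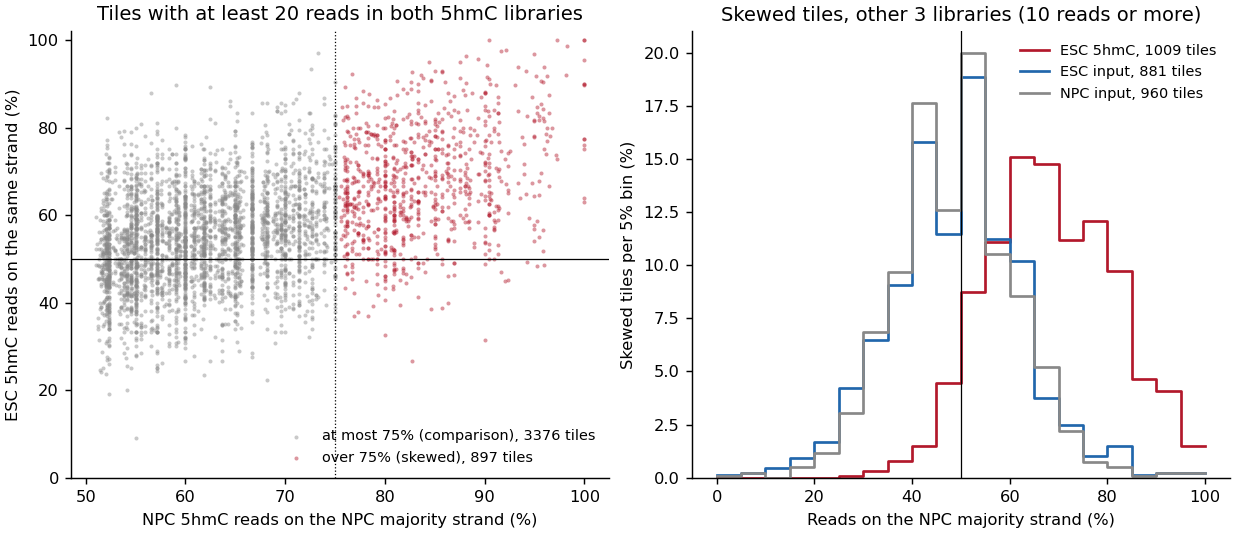
Left, share of 5hmC reads on the NPC majority strand in NPC (horizontal axis, %) and in ESC (vertical axis, %), with 1 point per tile with at least 20 reads in both. The 897 skewed tiles (red) lie mostly above the line at 50%, and the 3376 comparison tiles (grey) are spread around 54.2%. Right, distribution over skewed tiles of the share on the NPC majority strand in ESC 5hmC, ESC input and NPC input (tiles with at least 10 reads). Both inputs are centred near 50% and ESC 5hmC is shifted to higher shares.

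The ESC share was lower in tiles with more ESC reads per NPC read. In 281 skewed tiles ESC 5hmC had fewer reads than NPC 5hmC, and there 76.9% (75.9 to 77.8) of the ESC reads lay on the NPC majority strand. The share was 68.1% (67.5 to 68.8) in 455 tiles with 1 to 2 ESC reads per NPC read and 61.1% (60.3 to 61.8) in 242 tiles with 2 to 4. In 38 tiles with 4 or more it was 59.8% (58.3 to 61.3). The NPC share barely moved over these classes, from 84.5% to 82.5%. In each class the ESC share was below the NPC share, and the gap was widest where ESC had most reads per NPC read. These classes use the NPC count that chose the tiles and are not scaled to library depth. Only the NPC share had a minimum set by the rule, so the gap does not measure a difference between the cell types.

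ESC 5hmC was higher in the skewed tiles than over all kept tiles. Levels were counted as 5hmC reads per input read, and since their scale depends on how deeply each library was sequenced, only ratios can be read. The NPC/ESC ratio was 0.511 (0.498 to 0.524) in skewed tiles, 0.366 (0.362 to 0.371) in comparison tiles and 0.186 in all kept tiles. A minimum of NPC reads raises this ratio by construction in the first 2 sets, so that it is a description. ESC, which no rule selected, stood at 2.12 times its level over all kept tiles in skewed tiles (2.09 to 2.16) and at 2.36 times in comparison tiles (2.34 to 2.38). Skewed tiles were thus rich in ESC 5hmC, though less so than comparison tiles. The inputs covered both alike, with 35.2 summed input reads per skewed tile and 37.2 per comparison tile, against 25 in the average kept tile.

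The strands of the same tiles differed in this ratio. Majority-strand reads per input gave an NPC/ESC ratio of 0.647 (0.630 to 0.664) and minority-strand reads 0.244 (0.235 to 0.253), the latter nearer to the 0.186 of all kept tiles. The excess of the majority over the minority strand summed to 20984 reads in NPC and 15566 in ESC. Per input read of each cell type, the NPC/ESC ratio of the 2 excesses was 1.06, against 1.03 in comparison tiles. The scale depends on sequencing depth, so a ratio near 1 does not mean excesses of equal size. The NPC excess is the quantity that selected the tiles, so its size is a description.

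Tiles were also chosen by the same rule in ESC. There were 5461 kept tiles with at least 20 ESC 5hmC reads and over 75% on 1 strand. NPC held 69.2% (68.8 to 69.6) of its 5hmC reads on the ESC majority strand in them, against 55.1% (55.0 to 55.2) in the 107294 tiles with as many ESC reads and no such skew. Of the 369 ESC-skewed tiles with at least 20 NPC reads, 248 (67.2%) had over 75% of the NPC reads on the same strand, against 14.2% of the tiles not skewed in ESC. The 248 tiles skewed in both cell types, each towards the same strand, made up 24.4% of the NPC list and 4.54% of the ESC list. The ESC-chosen tiles had an NPC/ESC ratio of 0.196 (0.193 to 0.199), against 0.125 in the tiles with as many ESC reads and no such skew. Their strand excess per input had an NPC/ESC ratio of 0.126, against 0.0724. The ratios of the NPC-chosen and the ESC-chosen tiles cannot be compared, since each list sets a minimum of reads and an excess in the library that chose it.

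The NPC reads of a skewed tile stood in a narrow pile. The pile was measured as the shortest stretch that holds at least 50% of the 5′ ends on the majority strand. Its median width was 205.5 bp (194 to 217) over the 1016 tiles, and the middle 50% ran from 132 to 343 bp. In 773 tiles (76.1%) it was under 350 bp, the length to which each read was extended in the files, and in 42 (4.13%) it was over 1000 bp. In comparison tiles, piles on the strand ahead were wider, with a median of 315.5 bp (302 to 327), 54.3% under 350 bp and 14.0% over 1000 bp. Those piles held fewer reads, a median of 15 against 21. Outside the pile the reads thinned out gradually, since the stretch holding 80% of the majority 5′ ends in skewed tiles had a median of 651 bp (599 to 738) and the whole span 3153 bp.

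The piles were spread about evenly over the kilobases of the tile. By the middle of the extended reads, 197, 200, 218, 205 and 196 pile centres fell in the first to the last kilobase. Within 350 bp of a tile edge lay 110 of the 1016 centres (10.8%), where an edge could part the strands of a pile. In comparison tiles it was 7.37%. Without tile edges, in a window of 2500 bp on either side of the pile centre, 879 tiles (86.5%) had over 75% of the NPC reads on the majority strand. Within 500 bp it was 951 (93.6%). These windows are centred on the NPC reads that chose the tiles, which raises the share by construction, so they do not test an effect of the edges. In comparison tiles the pooled NPC share was 68.9% within 500 bp and 61.8% over whole tiles.

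**Figure D2:**
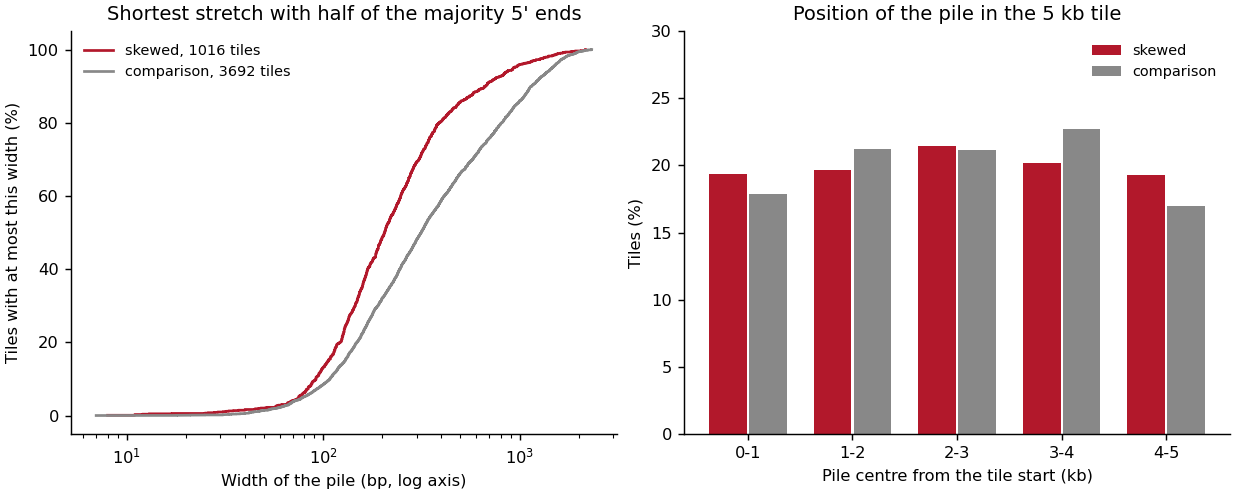
Left, cumulative share of tiles (%) by the width of the NPC pile (bp, log axis) in 1016 skewed (red) and 3692 comparison tiles (grey), with medians of 205.5 and 315.5 bp. Right, share of tiles (%) by the kilobase of the tile that holds the pile centre. The 5 bars of the skewed tiles lie between 19.3% and 21.5%.

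The ESC pile lay nearer to the NPC pile in skewed than in comparison tiles. Where ESC had at least 10 reads on the NPC majority strand (978 skewed tiles), the ESC pile was centred a median of 200 bp (170.5 to 226.5) from the NPC pile, and within 200 bp in 489 tiles (50%, 46.8 to 53.2). In comparison tiles the median distance was 497 bp (462 to 531), with 28.6% (27.1 to 30.1) within 200 bp. The ESC pile was wider than that of NPC, with a median of 528 bp (487 to 610) in skewed and 911 bp (884 to 938) in comparison tiles.

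Close to the NPC pile the ESC skew was stronger than over whole tiles, though below that of NPC. Within 250 bp of the pile centre 11359 ESC 5′ ends lay on the majority and 2080 on the minority strand, a share of 84.5% (83.9 to 85.1), against 66.3% over whole tiles. NPC had 16101 and 1594 there (91.0%), the reads that set the centre. The shares were 80.7% in ESC and 88.6% in NPC within 500 bp, and 75.4% and 86.9% within 1000 bp. A rise towards the pile was also present in comparison tiles, where the ESC share was 65.2% within 250 bp and 54.2% over whole tiles. Relative to the stretches 2 to 3 kb away, ESC was 5.98 times as dense on the majority strand and 1.25 times on the minority strand. In comparison tiles ESC was 2.94 and 1.58 times as dense. In the 200 bp after the centre, the ESC minority strand was 1.53 times as dense as its flanks in skewed tiles and 1.74 times in comparison tiles.

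In the skewed tiles NPC was 27.7 times as dense as its flanks on the majority strand and 4.35 times on the minority strand. The minority reads sat ahead of the pile in the reading direction of the majority strand, with 929 in the first 200 bp after the centre and 395 in the 200 bp before it. ESC minority reads did the same, with 1018 and 647. The 5hmC reads above the flanks on the majority strand within 500 bp gave an NPC/ESC ratio of 1.26 per input read of the tiles, whereas the flanks themselves gave 0.241. In comparison tiles the values were 1.20 and 0.196. On the minority strand the reads above the flanks gave 3.49 in skewed and 1.39 in comparison tiles. The 3.49 rests on 417.5 ESC reads above the flanks, where ESC 5hmC was 1.13 times as dense as its flanks. ESC input on that strand was 1.22 times as dense as its flanks there, so the 3.49 cannot be read as a 5hmC level. On the majority strand a high NPC/ESC ratio at the pile was not particular to skewed tiles, and in both sets the NPC side was selected for its reads.

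The inputs were uneven at the piles, in the direction opposite to 5hmC. In the 200 bp after the pile centre ESC input had 291 majority and 485 minority 5′ ends, a majority share of 37.5% (34.1 to 41.0). NPC input had 321 and 634, a share of 33.6% (30.6 to 36.7). From the flanks, 319 and 308 would stand there in ESC input and 401 and 404 in NPC input, so that the minority strand was 1.58 and 1.57 times as dense as in its flanks and the majority strand 0.912 and 0.801 times. In the 200 bp before the centre the shares were 50.2% (46.4 to 54.1) and 46.4% (43.0 to 49.9). In comparison tiles the shares after the centre were 45.1% (43.1 to 47.1) and 45.4% (43.7 to 47.2). Both input libraries were thus uneven just after the pile centre, more so in skewed than in comparison tiles. The part of this in the 5hmC skew was not tested.

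**Figure D3:**
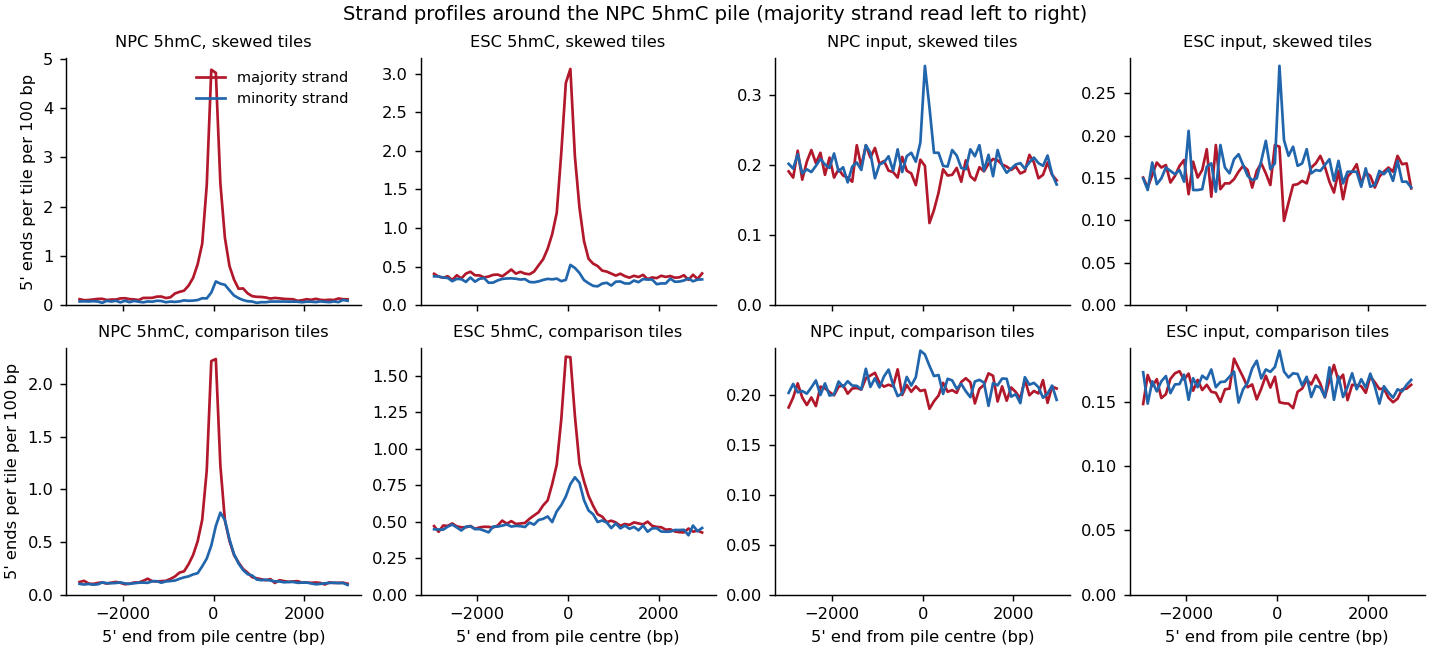
Mean number of 5′ ends per tile in 100 bp bins (vertical axis, scaled separately in each panel) by distance from the NPC pile centre (bp), with the majority strand reading left to right, in 1016 skewed tiles (top) and 3692 comparison tiles (bottom) for the 4 libraries. ESC 5hmC has a sharp majority-strand peak (red) at the NPC pile and little on the minority strand (blue), and both inputs show a minority-strand peak and a majority-strand dip just after the centre.

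Most NPC 5hmC positions in skewed tiles held 1 read. Among majority-strand NPC positions in skewed tiles, 4.05% held more than 1 read, against 1.81% of minority-strand positions there, 2.31% of majority-strand positions in comparison tiles and 1.48% over the autosomes. Since the cell types were barcoded and mixed, the number of identical 5′ ends was also counted. Of 25955 majority-strand NPC positions 1130 (4.35%) were also present in ESC 5hmC, against 2.36% in comparison tiles, and 0.374% were present in ESC input. Without the ESC positions also seen in NPC, the ESC share on the NPC majority strand was 65.6% (65.1 to 66.0).

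The tile with most NPC 5hmC reads lay on chromosome 4 from 129880001 to 129885000. It held 38 plus and 283 minus reads in NPC 5hmC and 25 plus and 228 minus in ESC 5hmC, so that the minus strand had 88.2% and 90.1% (85.8 to 93.5). The inputs leaned the other way, with 15 plus and 4 minus reads in ESC and 20 and 9 in NPC. Its majority reads did not form a narrow pile, as 50% of them spread over 2144 bp. It was the middle of a run of 3 adjacent skewed tiles with the same majority strand. The tile before it, from 129875001, had 85% of 60 NPC reads on the minus strand and 52.7% (43.7 to 61.6) of 129 ESC reads, with its pile 201 bp wide next to the shared edge. The tile after it, from 129885001, had 92.5% of 80 NPC reads and 74.7% (65.0 to 82.9) of 99 ESC reads.

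The next tiles by NPC reads had the same direction in both cell types. On chromosome 5 from 112055001 to 112060000 NPC had 26 plus and 112 minus reads and ESC 49 and 108, or 68.8% minus (60.9 to 75.9). On chromosome 2 from 89225001 to 89230000 NPC had 103 plus and 26 minus reads and ESC 87 and 22, and the plus share was 79.8% in each. The chromosome 2 tile was barely covered by input, with 1 plus and 4 minus reads in each cell type. On chromosome 3 from 43745001 to 43750000 NPC had 21 plus and 107 minus and ESC 16 and 75 reads. On chromosome 17 from 56670001 to 56675000 NPC had 27 plus and 93 minus and ESC 16 and 64. In these 5 tiles the NPC/ESC ratio of 5hmC per input was 0.831, 0.776, 1.18, 0.603 and 0.868, against 0.186 in all kept tiles. A minimum of NPC reads raises it by construction. The intervals were wide, as on chromosome 3, from 0.098 to 2.73 with 3 ESC and 7 NPC input reads. Since the scale depends on sequencing depth, a ratio of 1 does not mark equal levels. These tiles were picked as extremes, and no interval allows for that choice.

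**Figure D4:**
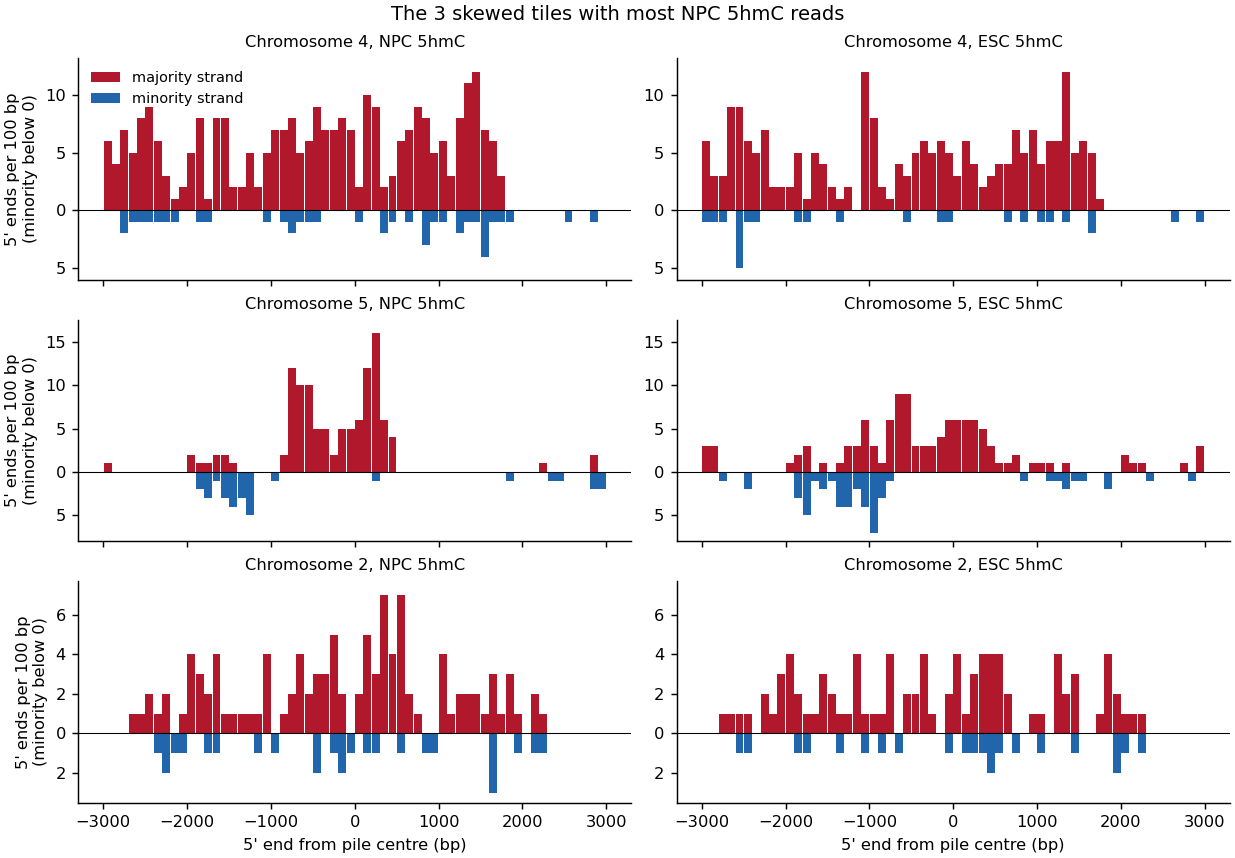
Number of 5′ ends per 100 bp on the majority strand (red, upward) and on the minority strand (blue, downward) by distance from the NPC pile centre (bp) in the 3 skewed tiles with most NPC 5hmC reads, for NPC 5hmC (left) and ESC 5hmC (right). In each tile ESC reads cover the same stretch as NPC reads, and the tiles on chromosomes 4 and 2 have broad piles without a single peak.

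Pile width was also compared among tiles with many reads. Among the 149 skewed tiles with at least 40 NPC reads, the widest were the chromosome 4 tile above, the chromosome 3 tile from 43745001 at 2049 bp, and one on chromosome 10 from 112255001 to 112260000 at 1845 bp. The last had 75 plus and 16 minus NPC reads and 69 and 14 ESC reads, with 1 plus and 5 minus reads in ESC input and 3 and 5 in NPC input. These tiles were high and skewed in both cell types. The narrowest was on chromosome 2 from 181745001 to 181750000, where 50% of 38 minus-strand NPC 5′ ends lay within 40 bp. ESC had 71.4% (57.8 to 82.7) of 56 reads on that strand. Next came a tile on chromosome 11 from 121040001 to 121045000, with a 45 bp pile, 88.4% of 43 NPC reads and 66.7% (50.5 to 80.4) of 42 ESC reads on the minus strand. In a tile on chromosome 10 from 93800001 to 93805000, with a 51 bp pile, NPC had 38 plus and 2 minus reads but ESC 20 and 17. Its ESC share of 54.1% (36.9 to 70.5) included equal strands.

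Of the tiles with at least 20 ESC reads, 4 had every ESC read on the NPC majority strand. On chromosome 5 from 50575001 to 50580000 ESC had 0 plus and 29 minus reads and NPC 1 and 35. On chromosome 15 from 63400001 to 63405000 ESC had 0 and 27 and NPC 0 and 21. On chromosome 4 from 18035001 to 18040000 ESC had 21 plus and 0 minus and NPC 19 and 2. The lower bounds of these ESC shares were 88.1%, 87.2% and 83.9%, and the inputs of these tiles had reads on both strands. The tile after these was on chromosome 3 from 156095001 to 156100000, with 98.6% of 70 ESC reads and 98.2% of 114 NPC reads on the minus strand.

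The remaining one of the 4 differed, since its inputs were on the same strand as 5hmC. It lay on chromosome 9 from 2995001 to 3000000, and all 21 ESC 5hmC, 22 NPC 5hmC, 31 ESC input and 31 NPC input reads were on the minus strand. Its NPC pile of 5′ ends ran from 3000142 to 3000155, past the end of the tile. Plus-strand reads starting there would be placed in the next tile. The strand shares of this tile therefore cannot be told apart from an effect of the tile edge. Another 2 tiles, chosen after their values were seen, had over 75% of both inputs on the 5hmC majority strand. They are adjacent on chromosome 12. The tile from 3105001 to 3110000 had 39 of 40 ESC input reads on the minus strand. The tile from 3110001 to 3115000 had 39 of 42 on the plus strand. By the middle of the extended reads, the NPC piles of both lay within 350 bp of their shared edge. The minus-strand pile stood before this edge and the plus-strand pile after it. The strand shares of these 2 tiles therefore cannot be told apart from an effect of the tile edge either. Among the 859 skewed tiles with at least 10 reads in each input, only these 3 had both inputs over 75% on the 5hmC majority strand. In 1 tile both inputs were over 75% on the opposite strand.

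The tiles where ESC went most against NPC had modest numbers of reads. On chromosome 2 from 53935001 to 53940000 the plus strand held 24 of 29 NPC reads and 8 of 30 ESC reads, an ESC share of 26.7% (12.3 to 45.9). On chromosome 16 from 38135001 to 38140000 it held 18 of 20 NPC reads and 16 of 51 ESC reads (31.4%, 19.1 to 45.9). On chromosome 11 from 69125001 to 69130000 the minus strand held 20 of 25 NPC reads and 28 of 86 ESC reads (32.6%, 22.8 to 43.5). These are the 3 tiles whose interval lay below 50%. The next, on chromosome 8 from 8930001 to 8935000 and from 106670001 to 106675000, both had 37.0% of the ESC reads on the NPC majority strand, with intervals that included 50%. All 5 are the extremes among 897, a choice for which the intervals make no allowance.

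Skewed tiles were spread over every autosome. The number ran from 19 on chromosome 18 to 119 on chromosome 5, and from 1.12 to 4.26 per 1000 kept tiles on these chromosomes. Measured against the tiles with at least 20 NPC reads, the share that was skewed lay between 15.3% (9.75 to 22.5, chromosome 19) and 24.0% (20.3 to 28.0, chromosome 5). The interval of each of the 19 chromosomes included the overall 20.5%. Chromosomes thus differed in how many tiles had enough NPC reads more than in the share that was skewed. The ESC share on the NPC majority strand was above 50% on each. Chromosome 17 had the lowest, 63.2% (61.3 to 65.1), and chromosome 3 the highest, 72.2% (70.0 to 74.3).

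**Figure D5:**
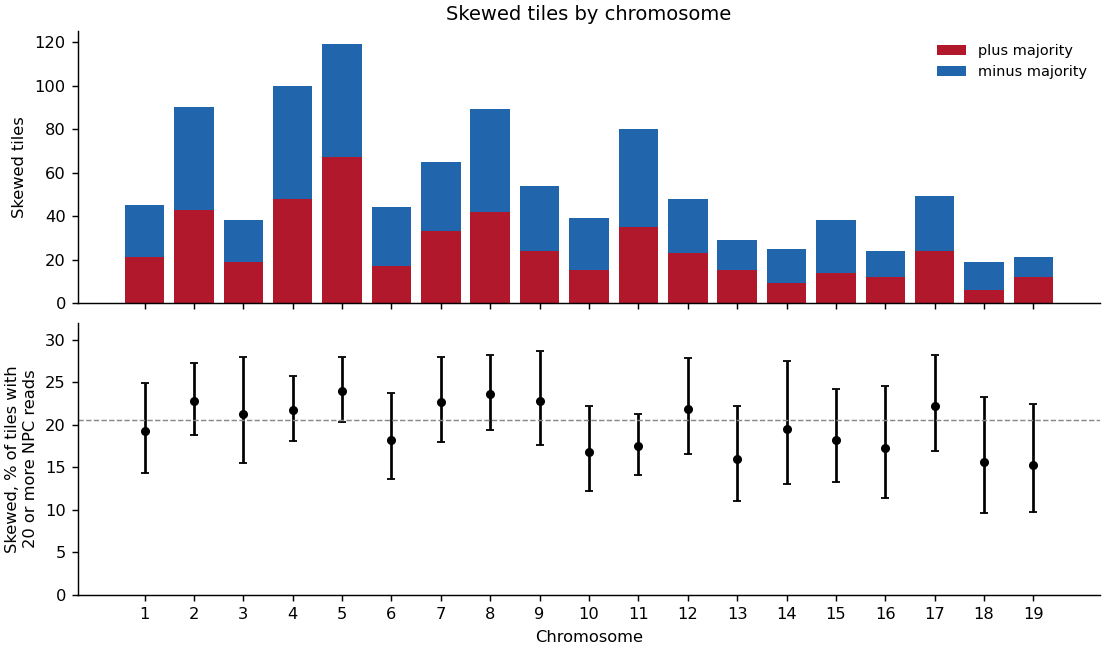
Top, number of skewed tiles on each autosome by majority strand (plus in red, minus in blue). Bottom, skewed tiles as a share (%) of the tiles with at least 20 NPC 5hmC reads, with exact 95% intervals as bars and the overall 20.5% as a dashed line, which each interval includes.

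Most skewed tiles stood alone. Of the 1016, 974 had no skewed neighbour, where skewed tiles were 0.224% of all kept tiles. The tiles on either side of a skewed tile held a median of 6.5 NPC 5hmC reads. In the skewed tile itself the median was 25, for which the rule set a minimum. Beside comparison tiles the median was 7.5, so neighbours with few NPC reads were not particular to skewed tiles. Consecutive skewed tiles on a chromosome were a median of 0.755 Mb apart. They were found in 217 of 258 windows of 10 Mb, and the window with most was on chromosome 5 from 110000001 to 120000000, with 41 skewed among 172 tiles with enough NPC reads. The 22 adjacent pairs had the same majority strand in 19 cases. A second run of 3 adjacent tiles, on chromosome 8 from 99180001 to 99195000, changed strand within it. Its first 2 tiles had plus shares of 81.2% and 80.5% in NPC and 90.6% (75 to 98.0) and 86.7% (69.3 to 96.2) in ESC. The tile from 99190001 to 99195000 had 86% minus in NPC and 90.5% (77.4 to 97.3) in ESC. The change of strand was thus present in both cell types.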

How the data were processed

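Each of the 4 deposited files lists read positions on mm9, with Bowtie 0.12.7 named per the submitters' processing notes. The deposited files have no header. Their column of whole-number counts was taken as the raw number of reads per position and strand, since no 5′ end and strand stood on more than 1 line, and nothing in the deposited values points to scaling; reads are extended to 350 bp. Treatment of reads with several matches is not given in the sources used here, and it could affect strand shares beside repeats. Each line was taken as 1 distinct read, placed by the midpoint of its ends; 97.9% to 99.7% of lines held 1 read. Python 3.11.15, numpy 2.4.6, pandas 2.3.3, scipy 1.17.1 and matplotlib 3.10.9 were used.

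Shares have exact Clopper-Pearson intervals, medians exact order-statistic intervals, and ratios the interval of the log odds ratio (exact conditional for single tiles). PCR reads are not independent molecules. With 1 library per group no test was run and no p-value is given. Selection and pile width were tested on simulated data. The tiles and measures were chosen with earlier results of these data known. Windows around the pile were chosen after seeing the data. Named tiles were the 5 with most NPC 5hmC reads, the 5 highest and 5 lowest ESC shares (at least 20 ESC reads), the 3 narrowest and 3 widest piles (at least 40 NPC reads), the longest runs, and the 3 tiles on either side of the limit. Grid, read weighting, placing, thresholds and tile size were varied.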

Additional observations from a re-analysis of the deposited data

Results flagged for a closer look

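Chromosome X was outside the tiles described above. The same rule found 10 skewed tiles there, 6 with the plus strand ahead, among 20 tiles with at least 20 NPC 5hmC reads. The ESC share on the NPC majority strand was 87.4% (84.3 to 90.1) in them. In the inputs 0 of 17 tiles (ESC) and 1 of 30 tiles (NPC) with at least 20 reads had over 75% on 1 strand. The chromosome is named here because it was outside the comparisons above. Its share of skewed tiles was higher in NPC 5hmC than in either input. This was so on the autosomes too, at 20.5% in NPC 5hmC, 1.53% in ESC input and 1.3% in NPC input.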

How the results depend on the processing

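Over the planned and added settings, 40 of the recomputed values stayed within 1.5 times (counts) or within the interval of the value given above, and 25 moved beyond it. In each setting the ESC share on the NPC majority strand stayed above 50%. No value left its interval with all deposited reads, placing by the 5′ end or no upper limit of the inputs, and the number of skewed tiles lay between 1017 and 1128 there. With tiles starting at 2500 there were 1056 skewed tiles, which held 654 of the piles described. The ESC share on the NPC majority strand was then 65.5%, the share of tiles over 75% in ESC 24.7% and the NPC/ESC ratio 0.489. With over 90% on 1 strand 168 tiles were left, with 39.9% plus majority, an ESC share of 72.0%, 45.3% of tiles over 75% in ESC, a width of 179 bp and a ratio of 0.592. The ESC input share was 51.3% in these tiles, above 50%, and 49.2% without tiles whose summed inputs had over 75% on the same strand, a setting chosen after seeing the data. With at least 40 NPC reads 149 tiles were left, with an ESC share of 72.8%, 50.3% over 75% in ESC, input shares of 47.1% (ESC) and 45.8% (NPC), a width of 332 bp and a ratio of 0.695. Tiles of 2 kb gave 738 skewed tiles, an ESC share of 76.8%, 59.2% over 75% in ESC, input shares of 46.5% and 45.5%, a width of 163 bp and a ratio of 0.795. Smaller tiles hold less of the flanks by construction, and the cause of the other shifts was not tested. The stretch with 80% of the reads was 651 bp wide. Leaving out ESC positions shared with NPC, also chosen after seeing the data, gave an ESC share of 65.6%. Without the 5 tiles with most NPC reads it was 66.1%, with a ratio of 0.505. The minimum of 20 reads leaves single tiles with wide intervals. No paired analysis was possible because each group held 1 library.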
